A study of Mus musculus with 24 samples.

Results

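The comparison set transverse aortic constriction (TAC) against sham surgery in hearts of benzene-exposed mice: 6 TAC/Benzene libraries against 6 Sham/Benzene libraries, 12 of the 24 libraries of the series, taken by their labels. All mice were male C57BL/6 mice, and each library came from poly-A RNA of the left ventricle and septum. In TAC a suture narrows the aortic arch, so that the left ventricle pumps against a raised pressure, and sham-operated mice had the surgery without the narrowing. After a recovery of 1 week both groups inhaled 50 ppm benzene for 6 hours a day on 5 days a week over 6 weeks, and the other 12 libraries (TAC/Air and Sham/Air, 6 each) came from mice kept in filtered air for the same time. The labels give no age, tie no library to a mouse and do not say whether hearts were pooled, so p-values measure only the spread among these libraries.

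Pressure overload makes heart muscle cells grow. They switch on genes of the fetal heart, such as the natriuretic peptides and the slow myosin heavy chain, and turn down genes for calcium cycling, ion channels and the burning of fatty acids, while fibroblasts lay down collagen and other matrix proteins. Benzene is a volatile solvent that the body oxidises through cytochrome P450 enzymes, chiefly Cyp2e1.

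Counts were scaled to CPM (a library's count of a gene relative to its scaled total), and a fold change is the log2 ratio of TAC/Benzene over Sham/Benzene, given with its standard error (SE). Total counts ran from 9396445 to 14632231 in Sham/Benzene and from 10016860 to 13724100 in TAC/Benzene. The groups lay apart on the first principal component of the 12 libraries (44.6% of the variance), with Sham/Benzene replicate 4 nearest to the TAC libraries. The second component (18.2%) set Sham/Benzene replicates 1 to 3 apart from replicates 4 to 6. The same split appeared in base composition: the correlation, across genes, of GC content with a library's deviation ran from -0.58 to -0.36 in replicates 1 to 3 and from 0.32 to 0.51 in replicates 4 to 6, and from -0.39 to 0.46 in TAC/Benzene. Sham/Benzene was also the more variable group: over 9151 genes averaging 10 CPM or more, the median coefficient of variation was 13.2% against 8.5% in TAC/Benzene.

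**Figure D1:**
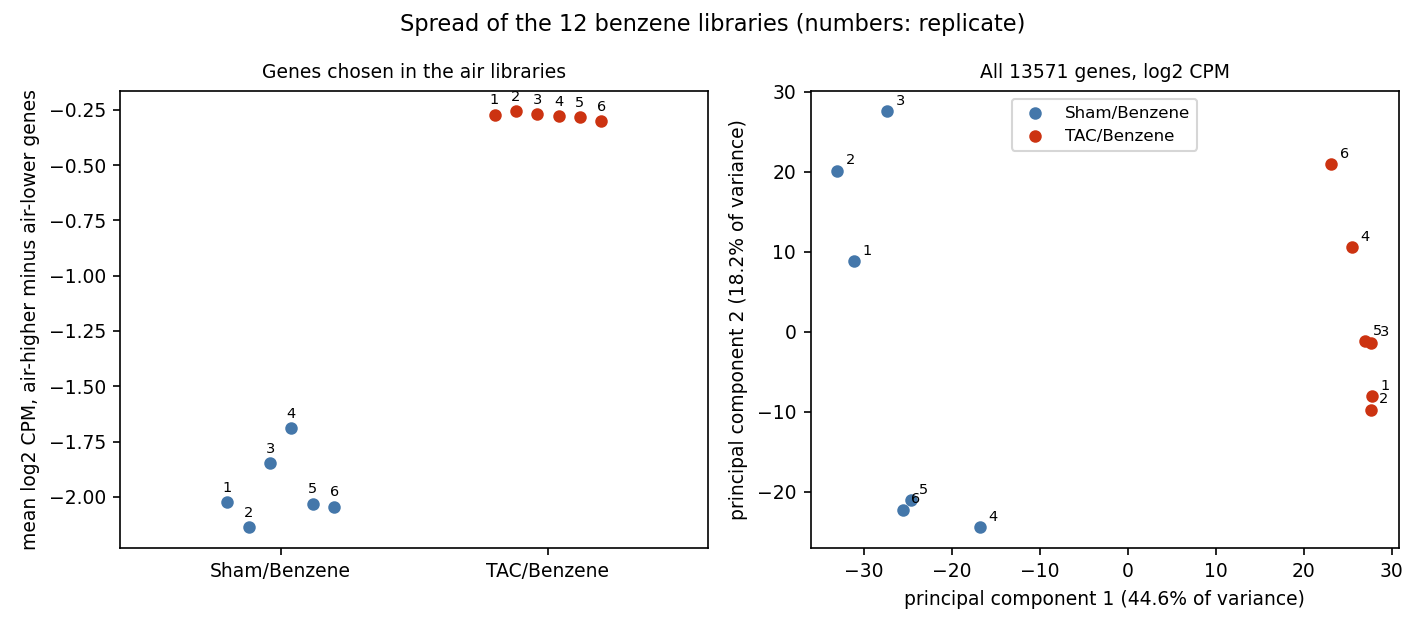
Left, each benzene library's mean log2 CPM of genes higher after TAC in air minus that of genes lower after TAC in air (y axis, log2), by group. Right, the first and second principal components of log2 CPM over 13571 genes, with the variance each explains; numbers are replicates, blue is Sham/Benzene and red is TAC/Benzene. The TAC libraries sit between -0.30 and -0.26 on the left axis and the sham libraries between -2.14 and -1.69.

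Pressure overload under benzene changed 2257 of 13571 tested genes (16.6%) in edgeR's quasi-likelihood test (Benjamini-Hochberg adjusted p under 0.05). Of these, 1176 rose (8.67% of the genes tested) and 1081 fell (7.97%). The rises were the larger changes: 393 genes (2.9%) at least doubled and 219 (1.61%) at least halved, and 99 rose against 23 that fell by 4-fold or more. The median log2 fold change was 0.73 among genes that rose, -0.59 among those that fell and 0 over all genes. In 1034 genes (7.62%) every TAC library lay above every sham library, and in 857 (6.31%) every TAC library lay below; 863 and 691 of these also passed the test. Without Sham/Benzene replicate 1 the test called 1992 genes, without replicate 4 2153, and without both 1848, of which 1741 were among the 2257. Sham/Air replicate 1, the shallowest library of the series, enters the shared estimate of spread, and without it 3667 genes were called, including all 2257. That library also had the lowest scaling factor of the series (0.8444) and, against the air libraries, the most negative GC trend (-0.75). The part of each in this shift was not tested. In bulk tissue, fewer cells of a type and less RNA per cell cannot be told apart, and this holds for each gene group that follows.

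**Figure D2:**
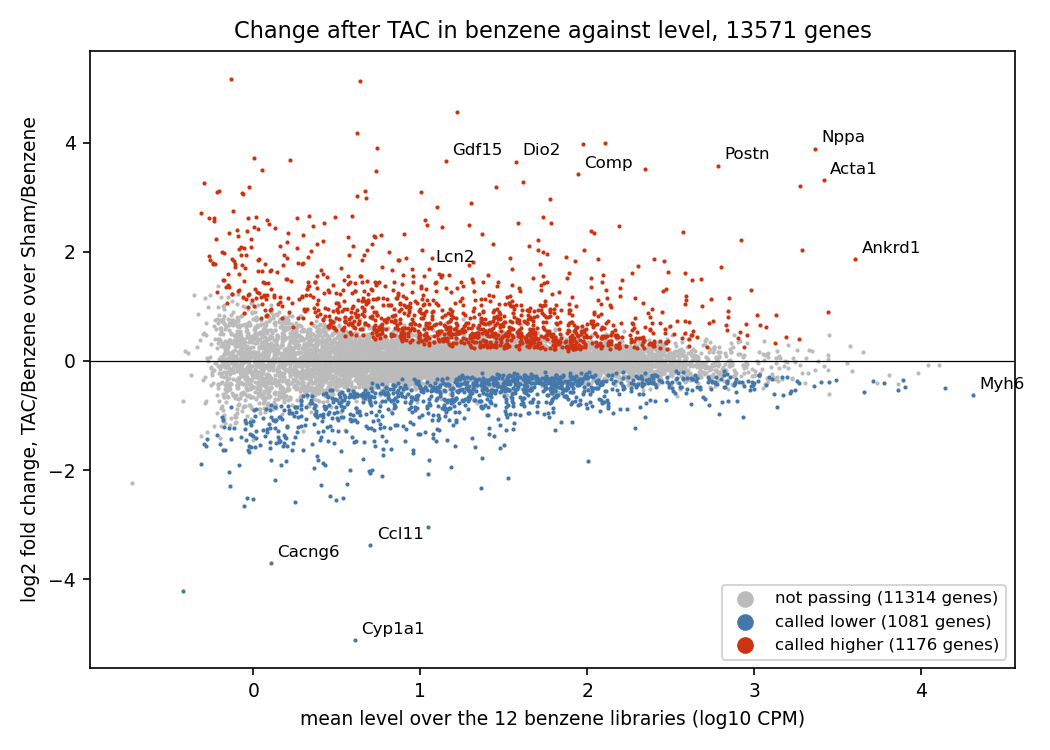
Log2 fold change of TAC/Benzene over Sham/Benzene (y axis) against the mean level over the 12 benzene libraries (x axis, log10 CPM), 1 point per gene for 13571 genes. Red points are the 1176 genes that rose, blue points the 1081 that fell and grey points genes that did not pass; values run from -5.11 (Cyp1a1) to 5.17 (Sprr1a).

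Of 24 tested stress-induced cardiomyocyte genes (25 listed), 16 rose, 1 fell and 7 did not pass, with a median log2 fold change of 1.29. Nppa, the atrial natriuretic peptide gene, stood at 174, 298 and 384 CPM (lowest, median and highest of 6) in Sham/Benzene and at 4015, 4288 and 4780 CPM in TAC/Benzene (log2 fold change 3.89 ± 0.16, adjusted p = 2.32e-15). The groups were more than 10-fold apart at their nearest libraries. Nppb, the brain natriuretic peptide gene and a plasma marker of heart failure, went from 234, 292 and 349 CPM to 1265, 1354 and 1458 CPM (2.22 ± 0.16). Skeletal alpha-actin, Acta1, a fetal isoform in the heart, measured 360.5, 422 and 693 CPM after sham surgery and 4515, 4666 and 5030 CPM after TAC (3.31 ± 0.15). Its spread across the TAC libraries was narrow, and Sham/Benzene replicate 4 was the highest sham library. Myh7, the slow myosin heavy chain, rose from 266, 353 and 472 CPM to 2640, 3524 and 3759 CPM (3.21 ± 0.12). Ankrd1, a stretch-sensing sarcomere protein gene, was at 1294, 1790 and 2038 CPM in the sham libraries and at 5933, 6370 and 6532 CPM in the TAC libraries (1.87 ± 0.15, adjusted p = 6.31e-10). Xirp2, whose product binds actin at the intercalated disc, rose from 645, 676 and 957 to 2867, 3124 and 3474 CPM (2.04 ± 0.29). For none of these 6 genes did the groups overlap, beside 7.62% of all genes that lay apart upward. The genes were named as load markers or for their change in these same libraries, so the separation is a description.

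The promoters of 4 of these load-responsive genes are shown because the factors that bind such sequences in heart muscle are well studied; each run is the 250 bases before the RefSeq transcription start (build GRCm38.p6, gene strand, 5′ to 3′). Capitals mark matches, on either strand, to the serum response factor box (CArG, by name) or the MCAT box CATTCC of the TEAD factors; these boxes do not overlap each other here. The AP-1 box TGANTCA was also searched and had no match in these 4 windows.
Nppa, chr4:148000472-148000721, plus strand: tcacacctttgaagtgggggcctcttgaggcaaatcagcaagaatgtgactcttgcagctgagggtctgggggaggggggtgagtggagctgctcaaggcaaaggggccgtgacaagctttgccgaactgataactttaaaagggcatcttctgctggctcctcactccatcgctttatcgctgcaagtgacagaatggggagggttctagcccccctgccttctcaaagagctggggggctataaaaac
Nppb, chr4:147985650-147985899, plus strand: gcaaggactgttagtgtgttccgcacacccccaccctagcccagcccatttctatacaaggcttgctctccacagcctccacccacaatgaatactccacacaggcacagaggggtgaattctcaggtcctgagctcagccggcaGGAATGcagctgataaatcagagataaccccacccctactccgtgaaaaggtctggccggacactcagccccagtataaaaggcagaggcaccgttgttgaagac
Acta1, chr8:123894776-123895025, minus strand: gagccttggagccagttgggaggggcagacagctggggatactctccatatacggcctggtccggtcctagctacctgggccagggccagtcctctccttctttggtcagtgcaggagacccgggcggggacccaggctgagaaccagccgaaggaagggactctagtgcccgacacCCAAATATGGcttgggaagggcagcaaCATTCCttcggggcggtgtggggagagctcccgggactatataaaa
Ankrd1, chr19:36119845-36120094, minus strand: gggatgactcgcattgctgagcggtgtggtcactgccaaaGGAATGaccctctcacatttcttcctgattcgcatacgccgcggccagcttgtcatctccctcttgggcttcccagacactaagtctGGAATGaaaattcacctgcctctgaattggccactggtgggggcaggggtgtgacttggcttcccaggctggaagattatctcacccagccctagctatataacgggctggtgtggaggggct
The Acta1 window holds a CArG box starting 73 bases before the start and an MCAT box 46 bases before it. The Nppb window has an MCAT box at 105 bases, and the Ankrd1 window has MCAT boxes at 210 and at 123 bases. Among 32851 RefSeq windows of this length, 1.47% hold a CArG box, 12.6% an MCAT box and 6.75% an AP-1 box. A match is a description of the letters only.

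The adult contractile apparatus moved less. Of 22 adult sarcomere genes, 1 rose, 5 fell and 16 did not pass (median -0.05). Myh6, the fast adult myosin heavy chain, fell from 20260, 24670 and 28390 CPM to 12190, 16930 and 17980 CPM (-0.62 ± 0.13, adjusted p = 0.000793). Cardiac troponin I, Tnni3, fell from 4182, 5519 and 6053 to 3120, 3699 and 3843 CPM (-0.57 ± 0.11). Mylk3, the cardiac myosin light chain kinase, fell from 716, 769.5 and 867 to 509.6, 568 and 582 CPM (-0.47 ± 0.0819). The member that rose was the intermediate filament gene desmin, Des, from 1518, 1953 and 2270 to 3061, 3733 and 3849 CPM (0.90 ± 0.16). Of 32 cytoskeleton and microtubule genes, 11 rose and 1 fell (median 0.25), with Map4 at 0.41 ± 0.0695, Map1a at 0.96 ± 0.15 and the tubulin gene Tuba1c at 0.78 ± 0.14; Map4 and Map1a bind and stabilise microtubules.

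**Figure D3:**
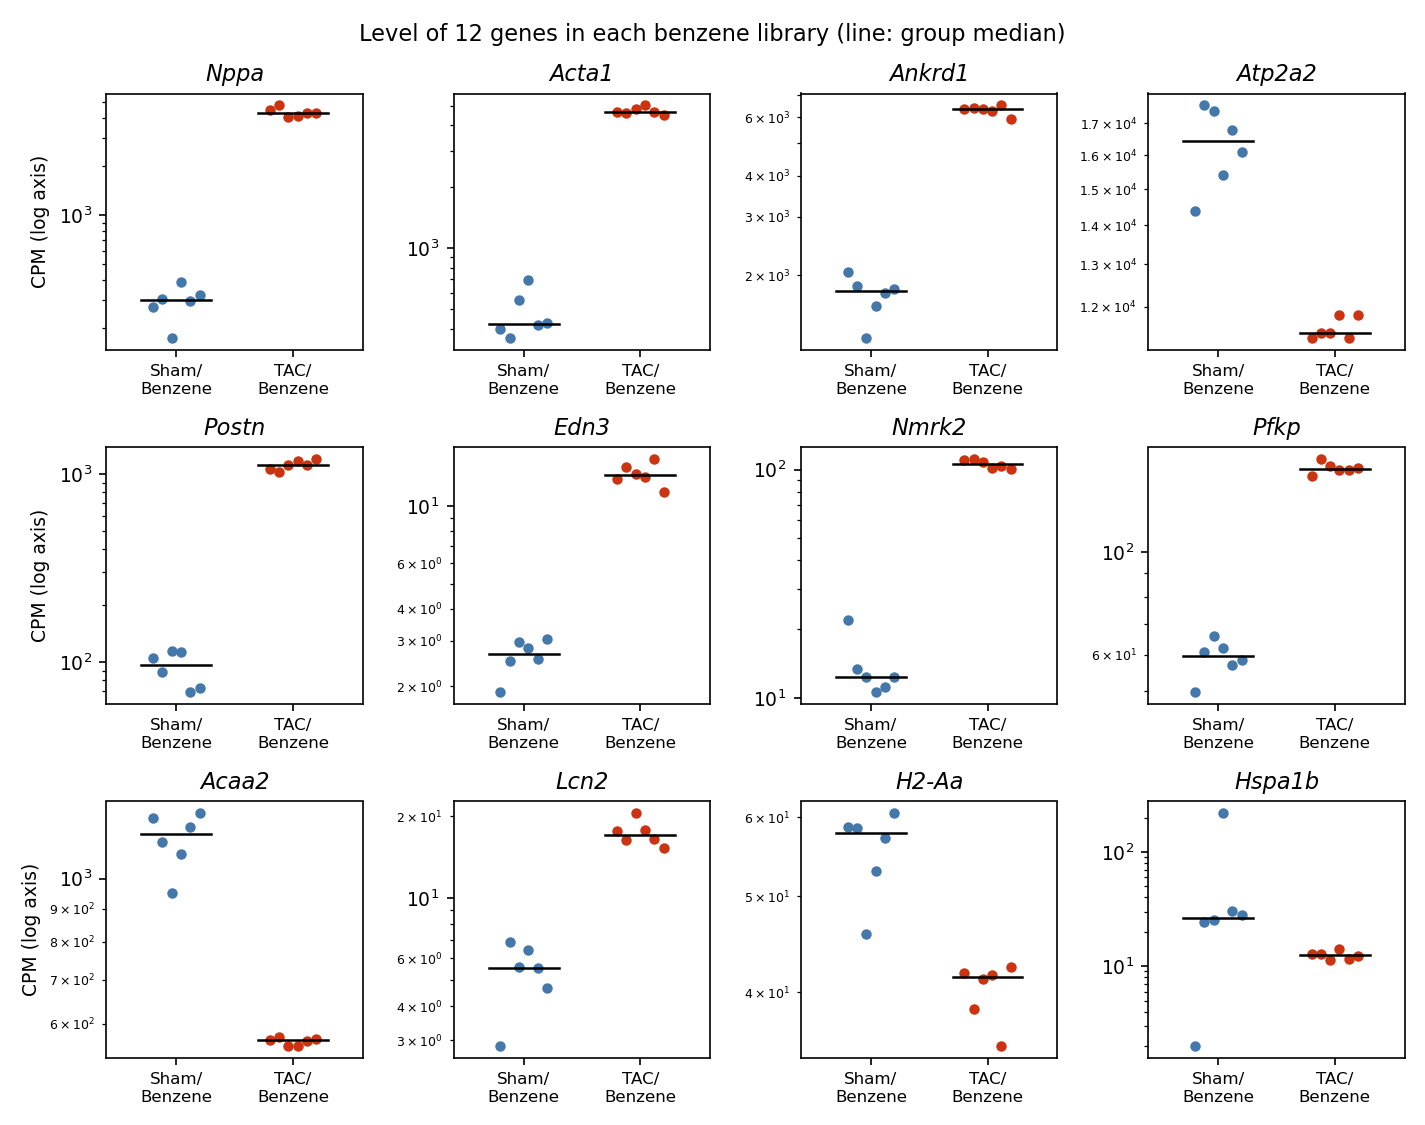
Level (CPM, log axis) of 12 genes in each benzene library; points are libraries, blue for Sham/Benzene and red for TAC/Benzene, and the line is the group median. Points of a group are spread sideways in replicate order; Hspa1b shows Sham/Benzene replicate 4 at 219 CPM and replicate 1 at 2.0 CPM, and in the other 11 genes the groups are apart.

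Where genes of excitation and relaxation changed, most fell. Among 25 calcium handling genes, 8 fell, none rose and 17 did not pass (median -0.14). Atp2a2, the pump that returns calcium to the sarcoplasmic reticulum, fell from 14400, 16470 and 17560 CPM to 11340, 11410 and 11790 CPM (-0.50 ± 0.0795, adjusted p = 4.03e-05), with no overlap. Its inhibitor phospholamban, Pln, fell by a like amount, from 8050, 9277 and 10540 to 5892, 6338 and 7968 CPM (-0.48 ± 0.14). Strit1, encoding a micropeptide that relieves that inhibition, fell from 4.53, 7.77 and 11.2 to 1.86, 3.51 and 5.37 CPM (-1.16 ± 0.26), and here the groups overlapped. Cacng6, a calcium channel gamma subunit, fell from 1.2, 1.88 and 4.11 to 0.0843, 0.0934 and 0.34 CPM (-3.7 ± 0.40), and the size of this fold rests on TAC levels near 0. Of 20 tested potassium channel genes (21 listed), 9 fell and none rose, and 19 of the 20 log2 fold changes were below 0 (median -0.39). Kcnv2, a silent subunit that modifies other channels, fell from 13.9, 17 and 24.7 to 5.86, 6.1 and 7.98 CPM (-1.46 ± 0.14). Kcnd2, a subunit of the transient outward current, fell from 24.4, 30.2 and 35.7 to 13.6, 17 and 18.8 CPM (-0.86 ± 0.11). Kcnj5 and Kcnj3, which form the acetylcholine-gated channel, changed by -0.73 ± 0.0738 and -1.12 ± 0.18, and Abcc9, the regulatory subunit of the ATP-sensitive channel, by -0.79 ± 0.16.

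In the conduction and receptor lists more genes fell than rose, beside shares over all genes of 8.67% higher and 7.97% lower. Of 17 sodium channel, pacemaker and gap junction genes, 1 rose and 7 fell. The sodium channel pore subunit Scn4a fell from 17.1, 29.8 and 33.8 to 12.6, 17.9 and 18.8 CPM (-0.74 ± 0.13), with overlap through Sham/Benzene replicate 1. Tbx5, a transcription factor of the conduction system and atria, fell from 20.8, 24.4 and 27.5 to 14.3, 16.1 and 19.5 CPM (-0.58 ± 0.0943). Among 24 tested adrenergic and cyclic nucleotide signalling genes (26 listed), 2 rose and 6 fell. Grk5, a kinase that desensitises beta-adrenergic receptors, rose from 24.3, 37.2 and 44.9 to 69.7, 72.3 and 84.4 CPM (1.03 ± 0.10). The alpha-1A adrenergic receptor, Adra1a, fell from 23.5, 29.3 and 35.7 to 14.1, 16.6 and 19 CPM (-0.85 ± 0.11), and Rgs2, which shortens signalling through Gq-coupled receptors, fell from 34.4, 39.4 and 58.7 to 15.6, 19.5 and 20.1 CPM (-1.17 ± 0.14). Of 13 tested angiotensin and endothelin system genes (16 listed, renin at 0 in all 12 libraries), 3 rose and 4 fell. Ace, which makes angiotensin II, rose from 84, 95.3 and 108 to 199.5, 222 and 229.7 CPM (1.19 ± 0.11). Endothelin 3, Edn3, rose from 1.9, 2.68 and 3.04 to 11.3, 13.2 and 15.2 CPM (2.33 ± 0.16, adjusted p = 2e-11). The mineralocorticoid receptor, Nr3c2, fell from 27.7, 30.6 and 35.2 to 14.7, 17.7 and 20 CPM (-0.80 ± 0.0992).

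Genes of the extracellular matrix rose together across several lists. Of 32 tested collagen chain genes (34 listed), 21 rose, 1 fell and 10 did not pass, with a median log2 fold change of 1.03. Col8a1, a short-chain collagen of vessels and scars, rose from 40.1, 46.4 and 52.9 CPM to 244, 257 and 283 CPM (2.48 ± 0.0891, adjusted p = 8.5e-17). Col12a1, which lies along collagen I fibrils, rose from 4.3, 5.06 and 8.02 to 47.6, 51.3 and 54.3 CPM (3.19 ± 0.13), and Col1a2, a chain of collagen I itself, from 154, 169 and 191 to 403, 422 and 441 CPM (1.31 ± 0.0701). The groups stood apart for all 3 genes, which were named for their small p in these libraries (7.62% of all genes lay apart upward). Genes for collagen processing, crosslinking and elastic fibres gave 21 rises and 3 falls among 33. Loxl3, a lysyl oxidase that crosslinks collagen, rose from 6.56, 7.56 and 9.52 to 36.2, 39.3 and 40.7 CPM (2.33 ± 0.13). The microfibril genes Ltbp2 and Mfap5 changed by 3.97 ± 0.19 and 2.38 ± 0.12; Ltbp2 was at 7.95, 9.62 and 19 CPM in the sham group, where replicate 4 was the high library, and at 158, 176 and 193 CPM after TAC. Efemp1, a fibulin of elastic fibres, went the other way, from 15.4, 17.9 and 20.7 to 3.23, 4.37 and 5.14 CPM (-2.07 ± 0.20, adjusted p = 1.63e-08).

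Among 26 matricellular genes, whose secreted products signal to cells rather than bear load, 19 rose, 1 fell and 6 did not pass; their median was 1.76, against 0 over all genes. Postn, periostin, secreted by activated fibroblasts, rose from 69.2, 96.5 and 114 CPM to 1035, 1118 and 1198 CPM (3.58 ± 0.22, adjusted p = 2.93e-12). Comp, a thrombospondin that helps collagen assemble, rose from 8.51, 14.8 and 24.4 to 146, 163 and 173 CPM (3.42 ± 0.23). Thbs4, Cilp and Ccn2 reached 226, 238 and 253, 400.1, 406 and 421 and 596, 625 and 674 CPM after TAC from sham medians of 13.7, 33.2 and 113 CPM. Cthrc1, a mark of activated fibroblasts, rose from 0.206, 0.396 and 0.796 to 6.37, 8.1 and 9.67 CPM (4.18 ± 0.27). Of 24 tested proteoglycan and hyaluronan genes (27 listed), 11 rose and 2 fell: biglycan, Bgn, from 264, 287 and 326 to 904, 937 and 1104 CPM (1.72 ± 0.0767), Prelp by 1.3 ± 0.0966 and fibromodulin, Fmod, by 2.53 ± 0.21. These 3 small leucine-rich proteoglycans bind collagen.

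Matrix proteases and their inhibitors gave 20 rises and 2 falls among 41 genes, and 20 rises and no fall without Sham/Benzene replicate 1. Timp1, an inhibitor of metalloproteinases, rose from 2.22, 2.88 and 4.73 to 16.2, 18.1 and 21.5 CPM (2.49 ± 0.24). Adamts2, which trims procollagen, and the related Adamtsl2 rose by 1.42 ± 0.11 and 2.21 ± 0.14. Of 21 fibroblast identity and activation markers, 10 rose, 1 fell and 10 did not pass. Their summed level was 2520 to 3040 CPM in the sham libraries and 4210 to 4250 CPM in the TAC libraries. Much of the rise was Postn, which averaged 93.6 CPM in the sham libraries and 1120 CPM in the TAC libraries. Pi16 also rose, from a mean of 89.7 to 225 CPM. Gsn, the marker of highest CPM, averaged 1760 and 1730 CPM, and Dpt 148 and 138 CPM. The fibroblast markers that rose moved with the matrix genes, some of which (Postn, Cthrc1 and Mfap5) are on both lists. The part of fibroblast number in the matrix result was not tested.

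Growth factor genes changed at the level of ligands and of secreted inhibitors. Of 31 tested TGF-beta and BMP family genes (37 listed), 11 rose and 2 fell. Tgfb2 rose from 13.9, 14.6 and 16.1 to 48.6, 53.7 and 61.7 CPM (1.88 ± 0.14, adjusted p = 9.64e-11) and Tgfb3 from 18.2, 21.5 and 27.3 to 46.5, 56.7 and 59.8 CPM (1.33 ± 0.10). Gdf6, a BMP-type ligand, rose from 0.672, 0.969 and 1.9 to 7.11, 8.6 and 9.43 CPM (2.99 ± 0.22). Among 18 tested Wnt pathway genes (25 listed), 9 rose and 2 fell. The secreted Wnt-binding proteins Sfrp2 and Frzb rose from sham medians of 4.32 and 9.47 CPM to 35.9 and 43.1 CPM (2.9 ± 0.16 and 2.15 ± 0.12), and Nkd2, an intracellular inhibitor, rose by 2.58 ± 0.15. Wif1, another secreted Wnt inhibitor, fell from 4.07, 8.25 and 10.8 to 2.93, 3.37 and 4.13 CPM (-1.23 ± 0.19), with overlap.

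Of 13 tested EGF family genes (15 listed), 2 rose and 2 fell, and 2 rose and 1 fell without Sham/Benzene replicate 1. Hbegf, a ligand of the EGF receptor, rose from 12.9, 17.4 and 19.4 to 50, 54.3 and 57.8 CPM (1.69 ± 0.11). Ereg, epiregulin, another ligand, rose from 0, 0.188 and 0.548 to 2.36, 3.01 and 3.92 CPM (3.68 ± 0.44). Without Sham/Benzene replicate 4, its highest sham library, the value for Ereg was 4.27, and the fold rests on sham levels near 0. Egf itself fell by 0.54 on the log2 scale (SE 0.12). Among 32 tested FGF, IGF and PDGF family genes (34 listed), 11 rose and 4 fell. Igfbp7 rose from 168, 224 and 286 to 529, 634 and 660.4 CPM (1.48 ± 0.12), Igfbp3 by 0.91 ± 0.10 and the heparin-binding factor pleiotrophin, Ptn, by 1.41 ± 0.16. The list of integrin subunits, the receptors for matrix, gave 6 rises and 1 fall among 26. Among the rises were the collagen receptor subunit Itga11 (1.57 ± 0.14) and Itga9 (0.86 ± 0.0827). The list also holds Itgbl1 (2.04 ± 0.17), an integrin-like gene whose product is not a receptor subunit. Of 25 tested angiogenic factors and receptors (28 listed), 7 rose and 3 fell, while 4 rose and 3 fell without Sham/Benzene replicate 1. Angpt1, a ligand that keeps vessels quiescent, fell from 37.1, 46.5 and 65.2 to 20, 23.2 and 24.7 CPM (-1.14 ± 0.20), while Esm1, a gene of sprouting endothelial cells, rose from 1.79, 2.58 and 3.9 to 5.26, 6.5 and 8.01 CPM (1.28 ± 0.19).

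**Figure D4:**
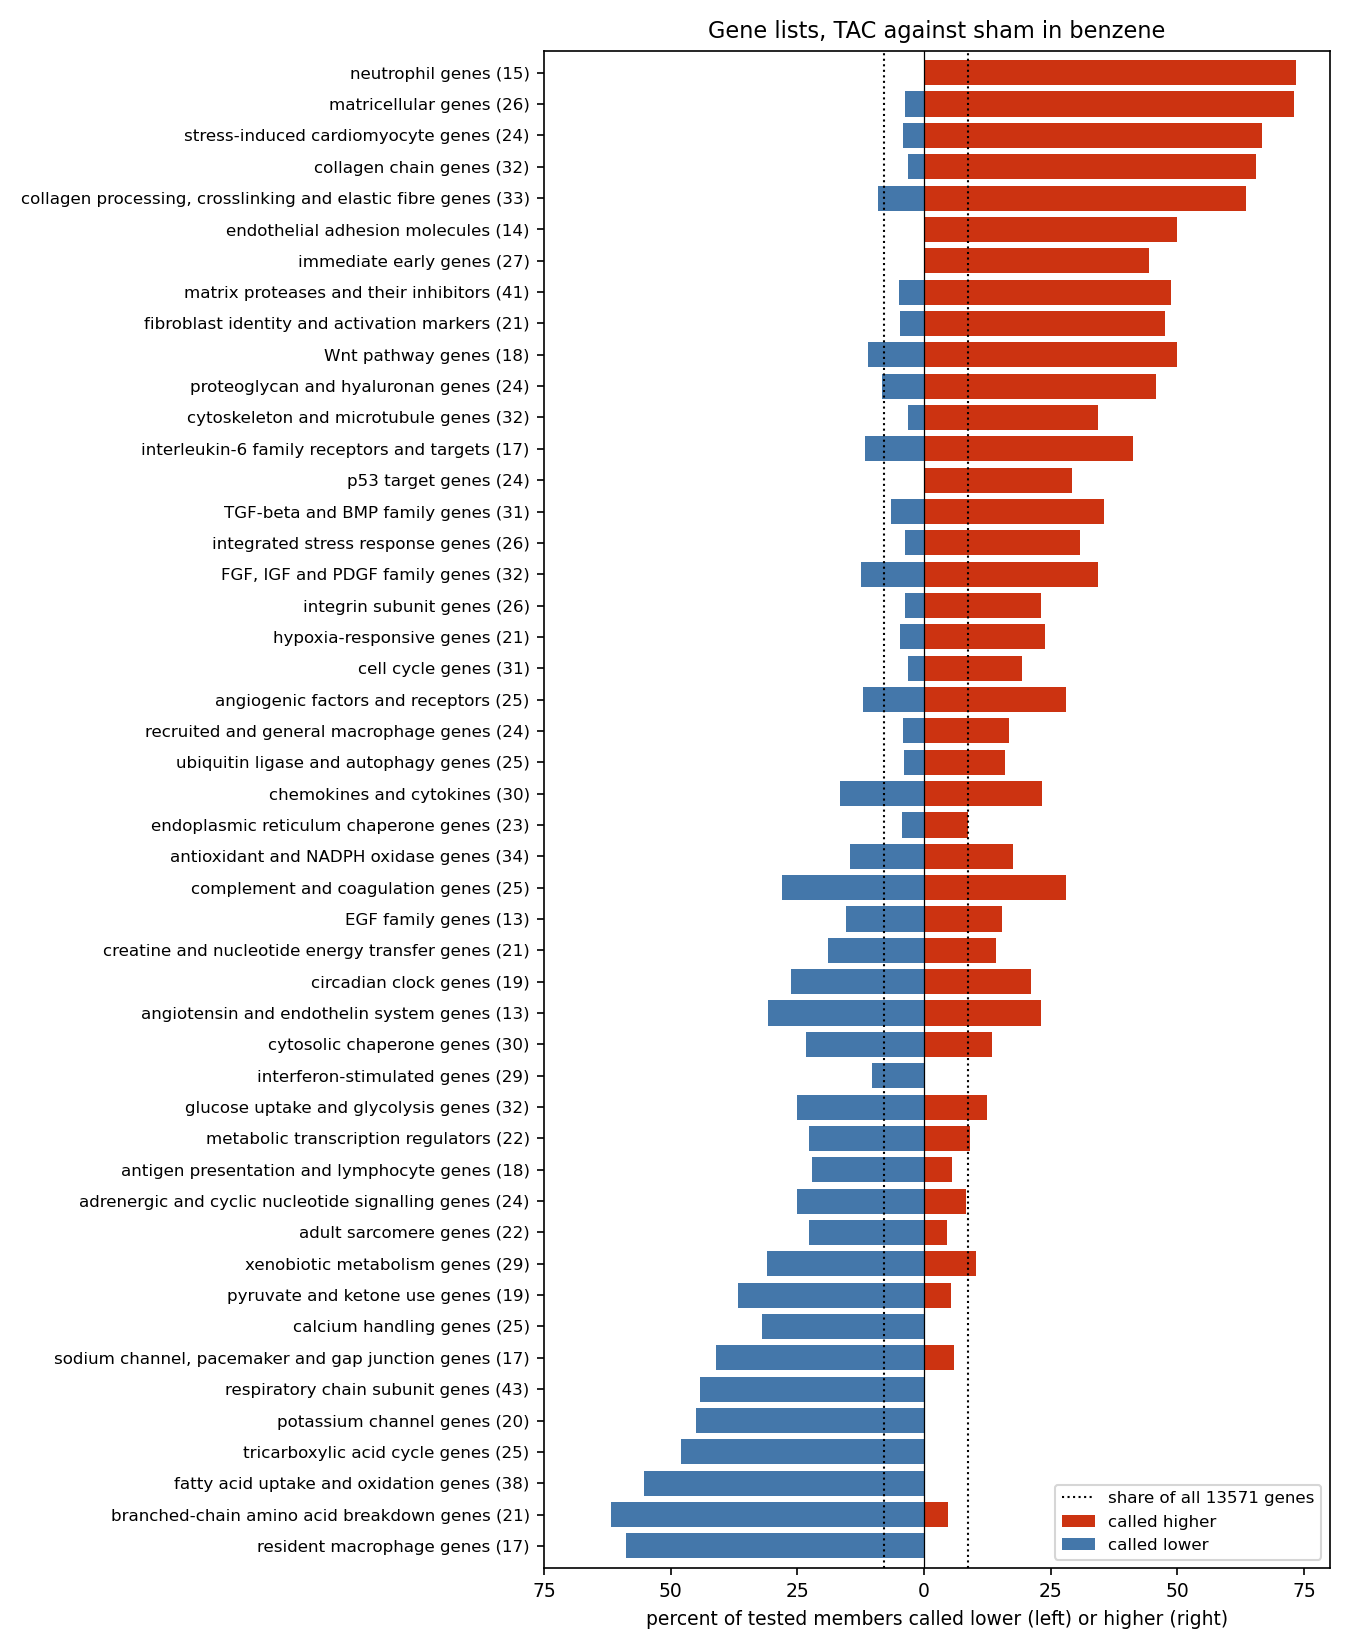
Share of tested members that rose (red, right) or fell (blue, left) in each functional gene list, as a percent of the tested members, whose number is in brackets; dotted lines are the shares over all 13571 genes, 8.67% higher and 7.97% lower. Matrix, stress-induced cardiomyocyte and neutrophil lists reach farthest right, and resident macrophage, branched-chain amino acid and fatty acid lists farthest left.

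Many genes of mitochondrial fuel use fell, and none in 3 lists rose. Of 38 fatty acid uptake and oxidation genes, 21 fell, none rose and 17 did not pass (median -0.43). Acaa2, the thiolase of the last step of mitochondrial beta-oxidation, fell from 952, 1172 and 1258 CPM to 554, 566 and 574 CPM (-1.02 ± 0.0739, adjusted p = 7.05e-11). The groups did not overlap for Acaa2. Acot1, a thioesterase induced by fatty acids, fell from 9.91, 18.2 and 20.7 to 5.15, 6.57 and 7.9 CPM (-1.41 ± 0.14). Of 25 tricarboxylic acid cycle genes, 12 fell and 13 did not pass, and all 25 log2 fold changes were below 0 (median -0.38). Sdha, which also serves the respiratory chain, fell from 1797, 1945 and 2121 to 1270, 1346 and 1385 CPM (-0.55 ± 0.0704), and the succinyl-CoA ligase subunits Suclg1 and Suclg2 by 0.53 and 0.38 on the log2 scale. Among 43 respiratory chain subunit genes, 19 fell and 24 did not pass, again with every log2 fold change below 0 (median -0.37). Ndufs1 of complex I fell from 988, 1100 and 1196 to 759, 799.9 and 816 CPM (-0.46 ± 0.0728), and the ATP synthase subunits Atp5b and Atp5a1 changed by -0.40 ± 0.0808 and -0.36 ± 0.0796. Without Sham/Benzene replicates 1 and 4 the count of falling respiratory chain genes was 13, and those of the other 2 lists were 19 and 12. With the sign of the libraries' GC trend as a factor, 28 respiratory chain genes fell. In the benzene libraries with a GC trend above 0 alone 43 of 43 fell, and in those with a trend below 0 alone 10 fell. The mean level of ventricular cardiomyocyte markers was lower too: 5 of 12 fell, and their summed level was 73700 to 93700 CPM in the sham libraries and 58100 to 70500 CPM in the TAC libraries. Its part in the metabolic result was not tested.

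Breakdown of branched-chain amino acids changed in the same direction: of 21 tested genes (22 listed), 13 fell and 1 rose, while 9 fell and none rose without Sham/Benzene replicates 1 and 4. Bckdhb, a subunit of the dehydrogenase that commits these acids to breakdown, fell from 68.2, 79.3 and 80.3 to 40.6, 45.7 and 55.3 CPM (-0.70 ± 0.11). Ppm1k, the phosphatase that activates that enzyme, fell from 138, 163 and 197 to 89.9, 95.2 and 106 CPM (-0.82 ± 0.0978), and Mccc2, of leucine breakdown, by 0.52 (SE 0.0820) on the log2 scale. Glucose genes were divided, with 4 rises and 8 falls among 32 tested (33 listed). Pfkp, the platelet isoform of phosphofructokinase, rose from 49.8, 59.7 and 66 to 146, 152 and 159 CPM (1.36 ± 0.0707, adjusted p = 9.55e-14). Pfkfb1, which makes the activator of phosphofructokinase, fell from 9.46, 14 and 16.8 to 3.56, 4.34 and 5.56 CPM (-1.64 ± 0.20), and Ldhb, the lactate dehydrogenase subunit typical of heart, from 1755, 2102 and 2428 to 1338, 1406 and 1540 CPM (-0.54 ± 0.0740). Of 19 pyruvate and ketone use genes, 7 fell. Pdp2, a phosphatase that activates pyruvate dehydrogenase, fell from 34.8, 45 and 55.7 to 22.1, 23.4 and 24.9 CPM (-0.97 ± 0.10). The single riser was Bdh1, the first enzyme of ketone body oxidation, from 157, 165 and 176 to 314, 319 and 327 CPM (0.95 ± 0.10).

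Other enzymes of metabolism outside these lists were among the strongest falls. Phkg1, the catalytic subunit of phosphorylase kinase in muscle, fell from 20.2, 23.4 and 32.8 to 4.79, 6.09 and 7.45 CPM (-1.94 ± 0.14), and the carboxylesterase Ces1d from 128, 159 and 186 to 42.4, 43.6 and 45.6 CPM (-1.84 ± 0.12). The groups did not overlap for these 2 genes, which were named for the size of their fall (6.31% of all genes lay apart downward). Of 21 tested creatine and nucleotide energy transfer genes (22 listed), 3 rose and 4 fell. Nmrk2, a kinase of the alternative route to NAD, rose from 10.6, 12.3 and 22 to 101, 106 and 111 CPM (2.96 ± 0.15, adjusted p = 5.08e-14), while Nampt, of the main salvage route, fell from 313, 382 and 512 to 247, 258 and 304 CPM (-0.59 ± 0.14). Metabolic transcription regulators gave 2 rises and 5 falls among 22 tested (23 listed). Dio2, the deiodinase that activates thyroid hormone, rose from 3.94, 5.11 and 8.23 to 63.6, 68.1 and 75.6 CPM (3.65 ± 0.17). Klf15, a regulator of lipid and amino acid use, fell from 53.8, 72.4 and 82.9 to 47.7, 49 and 52.6 CPM (-0.50 ± 0.0989), and Rxrg by 0.44 (SE 0.0742) on the log2 scale.

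Of 26 tested integrated stress response genes (28 listed), 8 rose and 1 fell. Gdf15, a secreted stress hormone, rose from 0.864, 1.94 and 3.43 to 20.5, 27.4 and 29.4 CPM (3.66 ± 0.27). Within mitochondrial folate metabolism, Mthfd2 rose from 3.42, 3.82 and 4.8 to 6.39, 8.5 and 9.22 CPM (1.03 ± 0.13) and Aldh1l2 fell from 10.8, 11 and 15.2 to 3.82, 4.29 and 4.64 CPM (-1.46 ± 0.11). Endoplasmic reticulum chaperones gave 2 rises and 1 fall among 23, and 1 of each without Sham/Benzene replicate 1 or without replicate 4; these counts are near or below the shares over all genes (8.67% higher and 7.97% lower). Hypoxia-responsive genes gave 5 rises and 1 fall among 21, 3 rises and 1 fall without Sham/Benzene replicate 1, and 4 rises and no fall without replicate 4. Among them, Bnip3, a mitophagy receptor, rose from 209.6, 232 and 256 to 329.8, 342 and 394 CPM (0.59 ± 0.0705). Of 25 tested ubiquitin ligase and autophagy genes (27 listed), 4 rose and 1 fell (none fell without Sham/Benzene replicate 1), among them the muscle ubiquitin ligase adaptor Fbxo40 (0.48 ± 0.0623). Among 34 tested antioxidant and NADPH oxidase genes (36 listed), 6 rose and 5 fell, while 7 rose and 3 fell without Sham/Benzene replicate 1. Nox4, an oxidase that makes hydrogen peroxide, rose from 2.07, 2.86 and 4.51 to 19.6, 20.8 and 29.4 CPM (2.82 ± 0.23, adjusted p = 8.58e-10), and the secreted glutathione peroxidase Gpx3 from 220.1, 248 and 292 to 494, 519 and 548 CPM (1.05 ± 0.0823).

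Counts of changed cytosolic chaperones depended on Sham/Benzene replicate 4. Of 30 genes, 4 rose and 7 fell, and without that library 6 rose and 2 fell. Hspb6, a small heat shock protein gene of muscle, rose from 665, 737 and 837 to 1210, 1316 and 1591 CPM (0.85 ± 0.11), and Hspa1l from 11.9, 13.8 and 18.4 to 24.2, 28.3 and 30.4 CPM (0.97 ± 0.13). The inducible genes Hspa1a and Hspa1b, near-identical copies whose reads may be split between them, were listed as falling (-1.59 ± 0.53 and -2.15 ± 0.54). Hspa1b was at 219 CPM in Sham/Benzene replicate 4, at 2.0 CPM in replicate 1 and between 24.6 and 30.4 CPM in the other 4 sham libraries, against 11.4, 12.5 and 14.2 CPM after TAC. Without replicate 4 the values were -0.83 (adjusted p = 0.0733) for Hspa1b and -0.20 (adjusted p = 0.75) for Hspa1a. Without replicates 1 and 4 both, they were -1.11 (adjusted p = 1.08e-07) and -0.47 (adjusted p = 0.0684).

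Of 29 tested xenobiotic metabolism genes (31 listed), 3 rose and 9 fell. Cyp2e1, the main benzene-oxidising enzyme, was at 2.85, 3.9 and 5.38 CPM after sham surgery and at 0.508, 1.17 and 1.48 CPM after TAC (-1.87 ± 0.21). Cyp1a1, a target of the aryl hydrocarbon receptor, fell from 0.959, 4.04 and 28.9 to 0, 0.241 and 0.355 CPM (-5.11 ± 0.75). Its sham maximum was replicate 1, without which the value was -4.03, and the size of the fold rests on TAC levels near 0. Cyp1b1, a second target of that receptor, rose from 6.24, 9.95 and 16 to 18.2, 21.4 and 25.6 CPM (1.07 ± 0.18). Liver genes reached higher levels in some sham libraries: the liver list, which holds Cyp2e1 and had 5 of 12 genes tested, summed to 68.6 to 230 CPM in the sham libraries and 69.6 to 87.4 CPM in the TAC libraries. Albumin, Alb, averaged 17.1 CPM (highest 74.5) after sham surgery and 0.0281 CPM after TAC. Sham/Benzene replicate 1 held the highest Apoa2 level, 17.6 CPM, and the value of Apoa2 was -2.47 with that library and -1.45 without it. The part of liver RNA in the Cyp1a1 and Cyp2e1 results was not tested.

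Of 27 tested immediate early genes (31 listed), 12 rose and none fell. Fos rose from 2.43, 3.67 and 4.54 to 9.21, 10.1 and 11.2 CPM (1.45 ± 0.14), Egr2 by 2.28 ± 0.24 and Myc from 1.92, 2.59 and 3.98 to 6.39, 7.12 and 8.03 CPM (1.32 ± 0.17). Among 24 tested p53 targets (25 listed), 7 rose and none fell: the cell cycle inhibitor Cdkn1a rose from 17.2, 21.5 and 30.2 to 43.7, 48.2 and 54.9 CPM (1.09 ± 0.15), Cdkn2b, another such inhibitor but no classical p53 target, by 1.66 ± 0.28, and Zmat3 by 0.44 ± 0.10. Cell cycle genes gave 6 rises and 1 fall among 31 tested (32 listed), 3 rises and 1 fall without Sham/Benzene replicate 1 or without replicate 4, and 2 rises and 1 fall without both; Ccnd2, cyclin D2, was at 0.57 ± 0.12. The fall was Cenpf, a kinetochore protein gene, from 22.3, 35.4 and 59.1 to 6.96, 7.5 and 8.35 CPM (-2.33 ± 0.35). Of 19 circadian clock genes, 4 rose and 5 fell, and 3 rose and 3 fell without Sham/Benzene replicate 1. Arntl, the activator of the clock, rose from 2.64, 4.22 and 7.86 to 8.83, 11 and 12.7 CPM (1.19 ± 0.17), and Per2, of the repressor arm, fell from 37.4, 41.9 and 55.8 to 24.4, 26.7 and 31.9 CPM (-0.68 ± 0.11), as did the output factor Hlf (-0.82 ± 0.13). Times of tissue collection are not in the labels.

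Immune genes divided by cell type. The neutrophil list had 28 genes, of which 15 passed the filter on low counts; 11 of these rose, none fell and 4 did not pass. Without the filter 12 of 26 rose. A gene raised in 1 group alone can enter through the filter, so the count is a description. S100a9, a calprotectin subunit, was at 2.68, 5.02 and 8.5 CPM after sham surgery and 15.9, 18.8 and 20.1 CPM after TAC (1.89 ± 0.20). Lcn2, lipocalin 2, which binds bacterial siderophores, rose from 2.85, 5.52 and 6.91 to 15.2, 17 and 20.5 CPM (1.69 ± 0.17, adjusted p = 3.69e-08), and Retnlg from 0.37, 0.765 and 1.16 to 3.27, 4.82 and 5.59 CPM (2.52 ± 0.30). The summed level of the whole list was 56.9 to 98.4 CPM in the sham libraries and 123 to 137 CPM in the TAC libraries, and the granule genes Mpo and Elane of immature neutrophils were at 0 in all 12. Of 14 tested endothelial adhesion molecules (17 listed), 7 rose and none fell. The selectins that slow passing leukocytes, Sele and Selp, rose from 1.33, 1.96 and 2.88 to 4.24, 5.82 and 6.03 CPM (1.44 ± 0.16) and from 0.381, 0.635 and 1.03 to 2.21, 2.78 and 4.02 CPM (2.07 ± 0.24), while Cd34 changed by 0.52 ± 0.0602.

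Many resident macrophage genes went down: of 17 tested (20 listed), 10 fell and none rose (median -0.46). The summed level of the whole list overlapped between the groups, at 653 to 761 CPM in the sham libraries and 618 to 688 CPM in the TAC libraries. Mgl2, a lectin of alternatively activated macrophages, fell from 15.8, 16.8 and 23.3 to 7.15, 7.28 and 8.12 CPM (-1.24 ± 0.12, adjusted p = 1.53e-08). Retnla, a secreted product of the same cells, fell from 1.66, 2.75 and 5.27 to 0.337, 0.509 and 0.71 CPM (-2.58 ± 0.29), and Lyve1, which marks resident macrophages and lymphatic vessels, from 32.6, 40.8 and 49.4 to 21.6, 23.6 and 27 CPM (-0.76 ± 0.12). Recruited and general macrophage genes gave 4 rises and 1 fall among 24 tested (27 listed), and no fall without Sham/Benzene replicate 1 or without replicate 4. Those that rose include Lgals3 (1.56 ± 0.25), Cd9 (0.58 ± 0.0929) and Cx3cr1 (0.85 ± 0.14). Among 18 tested antigen presentation and lymphocyte genes (26 listed), 1 rose and 4 fell, and without Sham/Benzene replicate 4 none rose and 3 fell. The class II genes H2-Aa and Cd74 fell from 45.8, 57.9 and 60.6 to 35.3, 41.4 and 42.4 CPM (-0.47 ± 0.0771) and from 106, 129 and 157 to 88.4, 92.2 and 97.6 CPM (-0.50 ± 0.0928). Interferon-stimulated genes gave 3 falls and no rise among 29 tested (30 listed), near the share of falls over all genes; Igtp, an immunity-related GTPase, was at -0.51 ± 0.0899.

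Of 30 tested chemokines and cytokines (41 listed), 7 rose and 5 fell. The eosinophil attractant Ccl11 fell from 6.84, 8.94 and 12.1 to 0.653, 0.694 and 1.57 CPM (-3.37 ± 0.31, adjusted p = 6.11e-09), and Il15, a survival factor for lymphocytes, from 39.5, 43.4 and 50 to 20.1, 21.6 and 24.3 CPM (-1.03 ± 0.10). Cx3cl1, fractalkine, rose from 9.07, 12.2 and 15.1 to 25.7, 30.5 and 32.2 CPM (1.28 ± 0.17). Interleukin-6 family receptors and targets gave 7 rises and 2 falls among 17 tested (20 listed). Serpina3n, an acute-phase protease inhibitor, rose from 27.6, 32.1 and 55.8 to 175, 185 and 194 CPM (2.35 ± 0.14). Complement and coagulation genes split evenly, 7 up and 7 down of 25 tested (33 listed). Serpinf1 rose from 32.3, 39.7 and 46.8 to 99.2, 111 and 125 CPM (1.52 ± 0.10), clusterin, Clu, by 0.65 ± 0.0663 and the lectin-pathway protease Masp1 by 1.1 ± 0.13.

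Markers of other tissues were read in both groups. Lung epithelium markers were near 0, with 2 of 16 tested, a summed level of 1.78 to 4.22 CPM over both groups and Scgb3a2, Sftpa1, Sftpd and Bpifa1 at 0. The club cell gene Scgb1a1 fell from 0.206, 0.801 and 1.35 to 0, 0 and 0.0887 CPM, and no fold is given because its TAC level is at or near 0. Blood markers summed to 49.1 to 75 CPM, with Hba-a1, Hbb-b2, Hbb-bs and Hbb-bt at 0 and none of 7 tested changed. Atrial markers differed between sham libraries: Myl7, the atrial myosin light chain, was at 12, 33.1 and 83.5 CPM in Sham/Benzene, highest in replicate 4, and at 7.18, 10.6 and 12.9 CPM in TAC/Benzene (-1.77 ± 0.35), with overlap. Of 11 tested atrial markers (12 listed), 3 rose, among them Nppa and Clu, and 6 fell. Kcnj3 and Tbx5 are on that list, and the part of atrial tissue in their falls was not tested. Of 8 tested adipocyte markers (15 listed), 3 fell; Car3 went from 2.5, 6.9 and 8.74 to 0.927, 1.02 and 2.04 CPM (-2.26 ± 0.28) and the amino acid transporter Slc36a2 from 15.9, 23.4 and 25.2 to 9.26, 10.8 and 11.5 CPM (-1.08 ± 0.11). Nerve and Schwann cell markers gave 2 rises and 5 falls among 11 tested (15 listed): Dbh, which makes noradrenaline, fell from 2.5, 5.07 and 5.52 to 0.943, 1.56 and 2.27 CPM (-1.5 ± 0.24), while Prnp rose from 153, 173 and 181 to 287, 303 and 315 CPM (0.81 ± 0.0653).

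The benzene hearts were also placed on the response seen in air, whose libraries are separate. Genes called in the 12 air libraries alone, 761 higher and 517 lower after TAC, set a scale: the mean log2 CPM of the first minus that of the second. The 6 Sham/Benzene libraries averaged -1.96 ± 0.16 (SD, n = 6) and the 6 TAC/Benzene libraries -0.28 ± 0.01 (SD, n = 6). All 6 TAC libraries lay above all 6 sham libraries, and Sham/Benzene replicate 4 was nearest to them at -1.69.

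In air 8.81% of tested genes rose after TAC and 7.35% fell in the same fit. For 23 genes the effect of TAC differed between benzene and air by the test of the difference itself, 9 more positive (0.0663% of tested genes) and 14 more negative (0.103%) under benzene. Of these, 21 also passed the TAC test under benzene, and Scara3 and Irf9 did not. The neutrophil genes Mmp8, Retnlg, S100a8, S100a9 and Lcn2 led the positive side. The value for Mmp8 rests on levels near 0, with means of 0.275 CPM in Sham/Benzene and 0.109 CPM in TAC/Air. Lcn2 changed by 1.69 ± 0.17 under benzene and by -0.28 ± 0.18 in air, a difference of 1.97 ± 0.25 (adjusted p = 0.00046). Its TAC level was 17.3 ± 1.83 CPM (SD, n = 6) under benzene and 5.11 ± 1.00 CPM (SD, n = 6) in air. Sele differed by 1.2 ± 0.23 (adjusted p = 0.0166), whereas for Selp the difference of 1.57 ± 0.37 did not pass (adjusted p = 0.103). In muscle, Myot, a Z-disc protein gene, rose from 79.9, 86.1 and 90.9 to 140.4, 149.5 and 175 CPM under benzene (0.86 ± 0.0841) against 0.17 ± 0.0840 in air. Fkbp5, a glucocorticoid-induced chaperone gene, rose from 22.6, 23 and 27.9 to 34.8, 40 and 43.8 CPM (0.72 ± 0.0866) under benzene. In air it changed by 0.0527 ± 0.0869, and its sham mean was 30.6 CPM there and 23.9 CPM under benzene. Pfkp rose by 0.47 more under benzene (SE 0.0987, adjusted p = 0.0435). For Acta1 (0.85 ± 0.19, adjusted p = 0.0917), Nmrk2 (0.90 ± 0.20, adjusted p = 0.0642) and Hspb6 (0.65 ± 0.15, adjusted p = 0.083) the difference did not pass.

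On the negative side were the class II genes H2-Aa, H2-Ab1 and Cd74. H2-Aa changed by -0.47 ± 0.0771 under benzene and by 0.24 ± 0.0769 in air (difference -0.71 ± 0.11, adjusted p = 0.00173). Within the benzene libraries of GC trend below 0, the falls of H2-Aa, H2-Ab1 and Cd74 did not pass edgeR's test (-0.37, -0.41 and -0.46, adjusted p = 0.105, 0.141 and 0.0719). Within those of GC trend above 0 they passed. For H2-Ab1 the benzene groups overlapped, and its fall did not pass with GC and length offsets (adjusted p = 0.0612). Mgl2 fell under benzene and in air, by 1.24 and 0.43 on the log2 scale (difference -0.81 ± 0.17). Cyp2e1 and Car3 fell under benzene, while in air their changes of 0.0737 ± 0.21 and -0.30 ± 0.26 did not pass. Sham means of these genes were 4.09 and 6.01 CPM under benzene and 2.28 and 4.66 CPM in air. The secreted cartilage proteins Chad and Clec3a went in opposite directions under benzene and in air: Chad from 2.22, 4.26 and 6.44 to 1.36, 1.81 and 3.23 CPM under benzene (-1.09 ± 0.25) against 1.55 ± 0.25 in air, and Clec3a at -1.49 ± 0.32 against 1.6 ± 0.31. Their sham levels differed too, with means of 4.36 and 5.92 CPM under benzene and 2.04 and 3.45 CPM in air. For both genes the benzene groups overlapped. In the benzene libraries with a GC trend below 0 alone, the falls did not pass edgeR's test (Chad -0.72, adjusted p = 0.292, and Clec3a -0.65, adjusted p = 0.426). Ecrg4, a secreted peptide precursor, rose in both, by 1.09 ± 0.22 under benzene and by 2.95 ± 0.25 in air. Without Sham/Air replicate 1 the count of genes with a differing effect was 49, and it ran from 16 to 26 with any 1 benzene library left out.

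**Figure D5:**
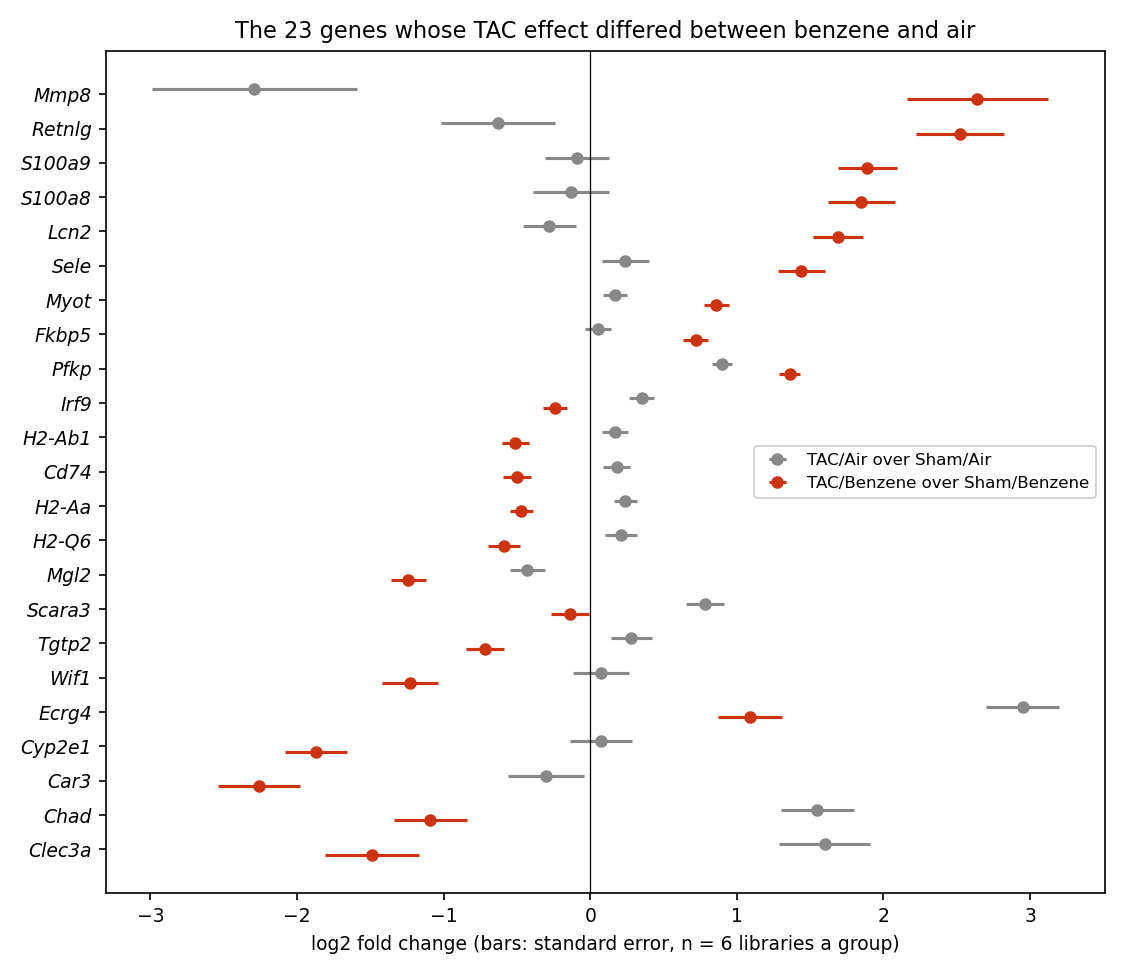
Log2 fold change of TAC over sham (x axis) for the 23 genes whose effect differed between benzene (red) and air (grey); points are estimates and bars are standard errors, 6 libraries a group. The 9 genes from Mmp8 to Pfkp lie farther right under benzene and the 14 from Irf9 to Clec3a farther left.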

How the data were processed

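The 24 libraries, of poly-A RNA from mouse left ventricle and septum, were sequenced on a NovaSeq, per the labels' protocols. The authors deposited 1 table of read counts per gene symbol. STAR, FastQC 0.11.9, DESeq2 and the mm9 build are listed in the submitters' processing notes. How reads were counted, on which annotation and with what strand setting, is not given in the sources used here.

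Of 25229 symbols, 5678 had no count, and 13571 passed edgeR's filter (minimum count 10, minimum total 15); the rest held 0.0747% of counts. All 24 libraries were fitted together in R 4.3.3 with edgeR 4.0.16 (quasi-likelihood test, robust, TMM scaling, 1 coefficient per group). TAC/Benzene minus Sham/Benzene was tested with Benjamini-Hochberg adjustment at 0.05. A prior count of 2 was used for log2 CPM (principal components, GC trends and the scale from air), not for the fold changes. The effect in air was subtracted in a test of the difference. Each SE was derived from the test, as the absolute log2 fold change divided by the square root of its F statistic. CPM values are not corrected for gene length. A level set beside that of another gene, or summed over a list, therefore depends on gene length too. The fit was tested on simulated data.

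Genes were named by a rule: 6 load markers, up to 3 genes of smallest p from each of 59 lists, and the largest folds, CPM changes and differences from air. The members and lists were chosen with earlier results of these data known. Genes outside the rule whose values were seen first are Alb, Scara3, Irf9 and Sprr1a. Alternatives were DESeq2 1.42.0, limma-voom (limma 3.58.1), other scaling and filters, GC and length offsets (98.5% of symbols matched), a replicate block, the 12 benzene libraries alone and libraries left out; 3 that split the libraries by their GC trend were added after seeing the data. Promoters are RefSeq's, of build GRCm38.p6, and no mm9 coordinate was used. Some named genes are not reported here.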

Additional observations from a re-analysis of the deposited data

Results flagged for a closer look

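In 364 groups of 6 libraries (each gene reported under the naming rule, in each benzene group), 34 had a highest or lowest library set apart from the others; chance alone flags about 1 in 20 groups. Sham/Benzene replicates 4 and 1 supplied 8 each. Replicate 4 was the highest sham library for Ltbp2 (19.0 CPM), Thbs4 (22.4 CPM), Fmod (21.7 CPM), Egr2 (4.25 CPM), Mgl2 (23.3 CPM), Fkbp5 (27.9 CPM), Hspa1a (184 CPM) and Hspa1b (219 CPM). Replicate 1 stood apart for Cyp1a1 (28.9 CPM), Apoa2 (17.6 CPM), Nmrk2 (22.0 CPM), Acot1 (9.91 CPM), Phkg1 (32.8 CPM), Prnp (153 CPM), Rgs2 (58.7 CPM) and Scn4a (17.1 CPM).

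Other sham libraries that stood apart were replicate 3 for Clu (730 CPM), Cox4i1 (1780 CPM), Igfbp3 (21.6 CPM), Serpina3n (55.8 CPM) and Angptl7 (4.16 CPM), and replicate 2 for Rxrg (82.9 CPM) and Aldh1l2 (15.2 CPM). Among TAC libraries, replicate 6 stood apart for Tnni3 (3120 CPM), Tgfb3 (46.5 CPM), Igfbp7 (529 CPM), Iigp1 (56.4 CPM), Nox4 (29.4 CPM) and Mmp8 (3.37 CPM). Replicate 4 did so for Scn4a (12.6 CPM), Sfrp2 (34.1 CPM), Frzb (54.4 CPM) and Rxrg (73.4 CPM), and replicate 1 for Sele (4.24 CPM).

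The effect of TAC differed between benzene and air by edgeR's test of the difference for 20 named genes. On the log2 scale, benzene minus air, the neutrophil genes were at 4.93 (Mmp8), 3.14 (Retnlg), 1.98 (S100a8), 1.98 (S100a9) and 1.97 (Lcn2). The Mmp8 value rests on levels near 0 in Sham/Benzene and TAC/Air. Sele was at 1.2, Myot at 0.69, Fkbp5 at 0.67 and Pfkp at 0.47. More negative under benzene were Clec3a (-3.09), Chad (-2.64), Cyp2e1 (-1.95), Car3 (-1.95), Ecrg4 (-1.85), Wif1 (-1.3), Tgtp2 (-1.0), Mgl2 (-0.81), H2-Aa (-0.71), Cd74 (-0.69) and H2-Ab1 (-0.68).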

How the results depend on the processing

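Against 2257 genes called for TAC under benzene, DESeq2 called 2673, limma-voom 4479, relative log expression factors 2259, no count filter 2125, a mean of at least 1 CPM 2187, GC and length offsets 3645 and the 12 benzene libraries alone 3346. Leaving out 1 library gave 1929 to 3667, the highest without Sham/Air replicate 1. With alternatives chosen after seeing the data, a factor for the sign of the GC trend gave 2880, the 5 benzene libraries with a trend below 0 gave 1449 and the 7 above 0 gave 4779. For the difference between benzene and air (23 genes), DESeq2 called 55, limma-voom 91, GC and length offsets 61 and the GC factor 36, and leaving out 1 library gave 16 to 49. The cause of these shifts was not tested.

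Same-numbered TAC and sham libraries did not deviate together (correlations -0.336 to 0.061, best partner of the same number in 0 of 6 pairs). The labels do not say what equal numbers mean, and a shared surgery day or batch was not tested. The main fit did not pair the libraries, and a replicate block gave 1951 calls for TAC and 14 for the difference.

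The gap between the groups on the air response was 1.69, 2.83 over genes at least 2-fold changed in air and 1.16 without Sham/Air replicate 1, where other genes define the scale. Among the lists, called members went from 5 to 3 for antigen presentation (without Sham/Benzene replicate 4, and without 1 and 4), 14 to 9 for branched-chain amino acids and 11 to 6 for cytosolic chaperones (without 1 and 4), 7 to 4 for cell cycle genes (without 1, or without 4; 3 without both) and 1 to 2 for lung (without 4). The GC factor moved interferon genes from 3 to 8, ubiquitin ligases from 5 to 8 and smooth muscle markers from 3 to 6. With the benzene libraries of GC trend below 0 alone and above 0 alone, falling genes numbered 10 and 43 of 43 for the respiratory chain (19 in all libraries) and 7 and 23 of 25 for the tricarboxylic acid cycle (12); the GC factor gave 28 and 15. Of 187 named genes called, 145 kept their call under every alternative run, and 0 reversed.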

Other observations

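Some marker lists were read outside the comparisons above. Of 11 tested cartilage and valve markers (18 listed), 5 rose and 3 fell after TAC under benzene. The summed level of the list was 35 to 72.1 CPM in the sham libraries and 181 to 211 CPM in the TAC libraries. Much of that rise was Comp, at medians of 14.8 CPM after sham surgery and 163 CPM after TAC. Sox9 also rose, from a median of 5.57 to 11.8 CPM. Cnmd fell from a median of 4.597 to 0.8625 CPM, and Chad from 4.26 to 1.81 CPM. Smooth muscle and pericyte markers gave 1 rise and 2 falls among 16. Mesothelial and epicardial markers gave 2 rises and no fall among 5 tested (13 listed), with sums of 25 to 32.6 CPM and 32.2 to 35.7 CPM. Skeletal muscle markers gave 1 rise and 2 falls among 6 tested (15 listed). At this depth, genes below the count filter were not tested, and 2 of 16 lung, 5 of 12 liver and 15 of 28 neutrophil list members passed it.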
